A study of Homo sapiens with 6 samples.

Results

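Cells that switch on a MAP kinase also switch on the proteins that turn it off again. The transcripts of 10 genes of this negative feedback were measured in irradiated HK-2 cells, which are immortalized epithelial cells of the human proximal tubule. They comprised the dual specificity phosphatases DUSP1, DUSP4, DUSP5, DUSP6, DUSP8 and DUSP10, the Sprouty proteins SPRY2 and SPRY4, and the Sprouty-related proteins SPRED1 and SPRED2. The genes were chosen by name, as feedback inhibitors of ERK, JNK and p38, and they took up 12 of 38648 listed genes and gene copies, because DUSP8 was listed 3 times. The 38648 entries carried 34644 gene names.

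All 6 libraries came from cells that had received 8 Gy of X-rays and were collected 7 days later. In 3 of them the cells carried a negative control lentivirus (IR+NC-LV), and in the other 3 a lentivirus for overexpression of PRDM16, a transcriptional regulator (IR+PR-LV). Transduced cells had been selected with puromycin. There was no unirradiated library among the 6, so the comparison is between 2 irradiated groups that differ in the transgene, and a change caused by the X-rays cannot be read from it. The replicates are named as separate samples of one cell line, and no source says that they were separate cultures, so p-values measure the spread between these samples, which may be technical.

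In outline, a growth factor receptor or a stress activates a chain of kinases that ends in ERK, JNK or p38, each switched on by phosphorylation of a threonine and a tyrosine. The MAP kinase phosphatases remove both phosphates. Many of their genes are themselves transcribed in response to the kinases they inactivate, so that their mRNA is widely used as a readout of recent pathway output. Sprouty and Spred proteins act further upstream, between the receptor, RAS and RAF. In the kidney tubule these pathways are known for their part in the response to injury, in proliferation and in stress signalling.

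The total count ranged from 13407074 to 28540041 reads per library. Each library allowed a transcript without any read to stand at up to 0.105 to 0.224 CPM (reads scaled to the size of the library), the level of 3 reads, and this limit covers counting error only. PRDM16 itself had 2, 0 and 1 reads in IR+NC-LV against 14, 10 and 8 in IR+PR-LV, low in every library and highest in the 3 labelled for its overexpression. Of the epithelial markers, KRT8, KRT18 and KRT19 were abundant, EPCAM was listed at 47.3 to 59.6 TPM (reads scaled to gene length and to the library), and CDH1 was near 0 at 0.249 to 0.581 TPM. Defining markers of the proximal tubule were at or near 0, with LRP2 at no more than 0.0112 TPM and HNF4A at no more than 0.0309 TPM, and GGT1 made up most of the summed level of that list (77.3 to 80.8 TPM in IR+NC-LV and 60.2 to 79.2 TPM in IR+PR-LV). The summed fibroblast markers lay between 129 and 136 TPM in IR+NC-LV and between 105 and 149 TPM in IR+PR-LV, most of it LUM, with DCN at no more than 0.113 TPM. The summed endothelial markers lay between 0.319 and 0.587 TPM. The summed blood markers lay between 181 and 200 TPM in IR+NC-LV and between 161 and 170 TPM in IR+PR-LV. Nearly all of that was CD68, while PTPRC, the defining marker of blood cells, was at no more than 0.0780 TPM.

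Because the feedback genes are known as targets of signal-dependent transcription factors, the sequence just before the start of 3 of them is shown. DUSP1 is the most abundant member, DUSP6 is the one with the smallest p-value, and SPRY2 is the most abundant Sprouty. The sequences are the 250 bases before an annotated start in RefSeq (GRCh38.p14), written 5′ to 3′ along the minus strand on which all 3 genes lie, at chr5:172771196-172771445, chr12:89352502-89352751 and chr13:80341127-80341376. Capitals mark the cyclic AMP response element TGACGTCA and its shorter core TGACG, found on either strand.
DUSP1: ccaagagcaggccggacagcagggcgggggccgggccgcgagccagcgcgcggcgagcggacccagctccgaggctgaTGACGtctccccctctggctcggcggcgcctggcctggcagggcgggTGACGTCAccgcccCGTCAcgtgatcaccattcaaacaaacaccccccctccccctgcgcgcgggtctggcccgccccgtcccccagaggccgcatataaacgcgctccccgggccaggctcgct
DUSP6: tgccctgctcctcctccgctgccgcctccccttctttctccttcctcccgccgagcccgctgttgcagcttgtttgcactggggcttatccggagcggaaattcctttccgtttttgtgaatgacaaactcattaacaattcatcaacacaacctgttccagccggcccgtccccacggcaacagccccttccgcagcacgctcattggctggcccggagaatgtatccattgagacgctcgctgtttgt
SPRY2: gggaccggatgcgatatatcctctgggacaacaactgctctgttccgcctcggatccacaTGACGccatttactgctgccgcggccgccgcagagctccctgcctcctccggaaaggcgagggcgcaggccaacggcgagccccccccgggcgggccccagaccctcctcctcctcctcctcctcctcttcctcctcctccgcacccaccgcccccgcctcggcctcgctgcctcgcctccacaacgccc
The DUSP1 sequence holds the whole element at positions -125 to -118 from the start, together with further cores at -172 to -168 and -111 to -107. SPRY2 holds a single core in the window shown, at -190 to -186, and its other annotated windows held none of the motifs searched. In the DUSP6 window no match to the whole element, its core, the AP-1 motif TGANTCA, the ETS motif CCGGAAGT, the CArG box or the NF-kB motif was found. The search covered 250 bases before to 50 bases after the start on both strands. The whole element occurs in 1.85% of all 35116 promoter windows of that length and its core in 24.6%, AP-1 in 7.71%, ETS in 4.14%, the CArG box in 1.29% and NF-kB in 11.3%. A core lies inside every whole element and was counted with it. The table matched 8 of the 10 members, without DUSP4 and DUSP5. Beyond the 3 shown, DUSP8 held the whole element at 2 places, at -118 to -111 and at -74 to -67, and SPRY4 a core at -68 to -64. Of the 2 SPRED2 windows 1 held a core at 30 to 34 and the other AP-1 at -6 to 0 and at 34 to 40, and 1 of the 2 DUSP10 windows held a core at -4 to 0. SPRED1 held none of the motifs. These matches describe letters in the window and no binding was measured.

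The members spanned levels that differed widely on the per-length scale. The TPM values, which divide by gene length and so allow genes to be compared, put DUSP1 first at 200 to 210 TPM in the 3 IR+NC-LV libraries and 202 to 212 TPM in the 3 IR+PR-LV libraries. DUSP5 followed at 85.7 to 87.6 TPM and 78.6 to 80.5 TPM, and SPRY2 at 50.6 to 67.1 TPM and 45.9 to 49.6 TPM. The middle of the order was held by DUSP10, SPRED1, DUSP6 and SPRED2, all between 15.7 and 37.6 TPM, and SPRY4 came next at 7.62 to 10.3 TPM. DUSP8 and DUSP4 were last, with DUSP8 at 0.196 to 1.40 TPM on its chromosome 11 copy and DUSP4 at 0.104 to 0.241 TPM.

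**Figure D1:**
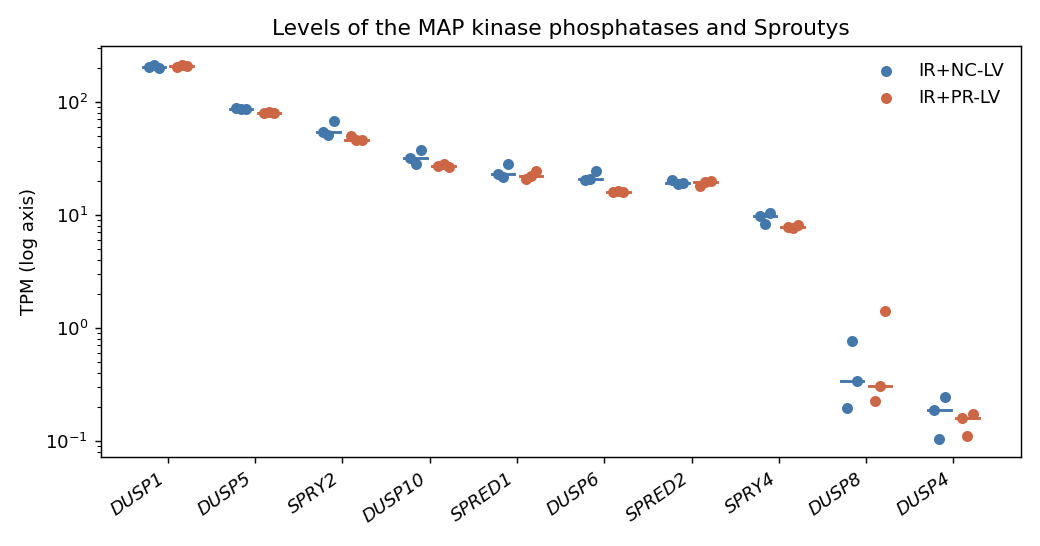
Level of each of the 10 members in TPM (vertical axis, log scale) in the 3 IR+NC-LV (blue) and 3 IR+PR-LV (orange) libraries, 1 point per library with a short line at the group's median, ordered by the IR+NC-LV median. DUSP1 stands at about 200 TPM in all 6 libraries, 8 genes lie above 7 TPM, and the points of DUSP8 and DUSP4 spread widely near the bottom.

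Within each group the order was nearly free of overlap. In IR+NC-LV the ranges of SPRED1 (21.6 to 27.8 TPM) and DUSP6 (20.2 to 24.1 TPM) overlapped, as did those of DUSP8 and DUSP4, and all other neighbours in the order were apart. In IR+PR-LV all neighbours were apart. The overlap of DUSP8 and DUSP4 rested on taking the chromosome 11 copy alone: with its listed copies summed, DUSP8 was at 0.798, 1.11 and 0.805 TPM in IR+NC-LV and at 0.542, 0.826 and 2.13 TPM in IR+PR-LV, above DUSP4 in every library. The orders of the 2 groups differed in 1 place. DUSP6 stood above SPRED2 in every IR+NC-LV library, at 1.01, 1.09 and 1.28 times its TPM, and below it in every IR+PR-LV library, at 0.880, 0.831 and 0.790 times. The ratio of DUSP6 to DUSP1, which is taken within a library and does not depend on how libraries are scaled to each other, was 0.0989, 0.0973 and 0.120 in IR+NC-LV and 0.0783, 0.0764 and 0.0755 in IR+PR-LV. Neither ratio overlapped between the groups. Both repeat the separation of DUSP6, the member with the smallest p-value, and are not separate evidence of it.

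The 10 members together amounted to 451, 445 and 473 TPM in IR+NC-LV and 420, 433 and 430 TPM in IR+PR-LV, and these ranges did not overlap. No other gene set was added up for comparison, and the members were chosen with earlier results known, so this is a description only. In bulk RNA, fewer cells with a transcript and less of it per cell cannot be told apart. DUSP1 alone supplied 42.3% to 47.3% of that sum in IR+NC-LV and 48.1% to 49.1% in IR+PR-LV.

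Under the question of what PRDM16 overexpression does to irradiated cells, the feedback genes as a group gave no call. None of the 9 members tested passed an adjusted p of 0.05 in edgeR's quasi-likelihood test (DUSP4 had too few reads to be tested), and none did in DESeq2. Over all 15340 genes and gene copies tested, 10 passed in edgeR, or 0.0652%, and 173 passed in DESeq2. At an unadjusted p under 0.05, 4 members were counted in edgeR and 3 in DESeq2, all with lower values in IR+PR-LV. The 4 were DUSP6, SPRY2, DUSP10 and SPRY4. Of all genes tested, 10.5% had an unadjusted p under 0.05 in edgeR, 5.97% on the lower side and 4.55% on the higher side. In DESeq2 the share was 8.25%, with 618 genes on the lower side and 647 on the higher side. The 3 libraries of a group lay wholly below the 3 of the other for 3 members (DUSP6, SPRY2 and SPRY4), each time with IR+PR-LV below, against 9.54% of all genes tested, and wholly above for none, against 7.46%. The median log2 fold change of the 9 members was -0.09, beside 0.0044 over all genes tested, with 3 members on the higher side and 6 on the lower. The members were chosen with earlier results of these data known, so these counts describe the members and are not a test of them.

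**Figure D2:**
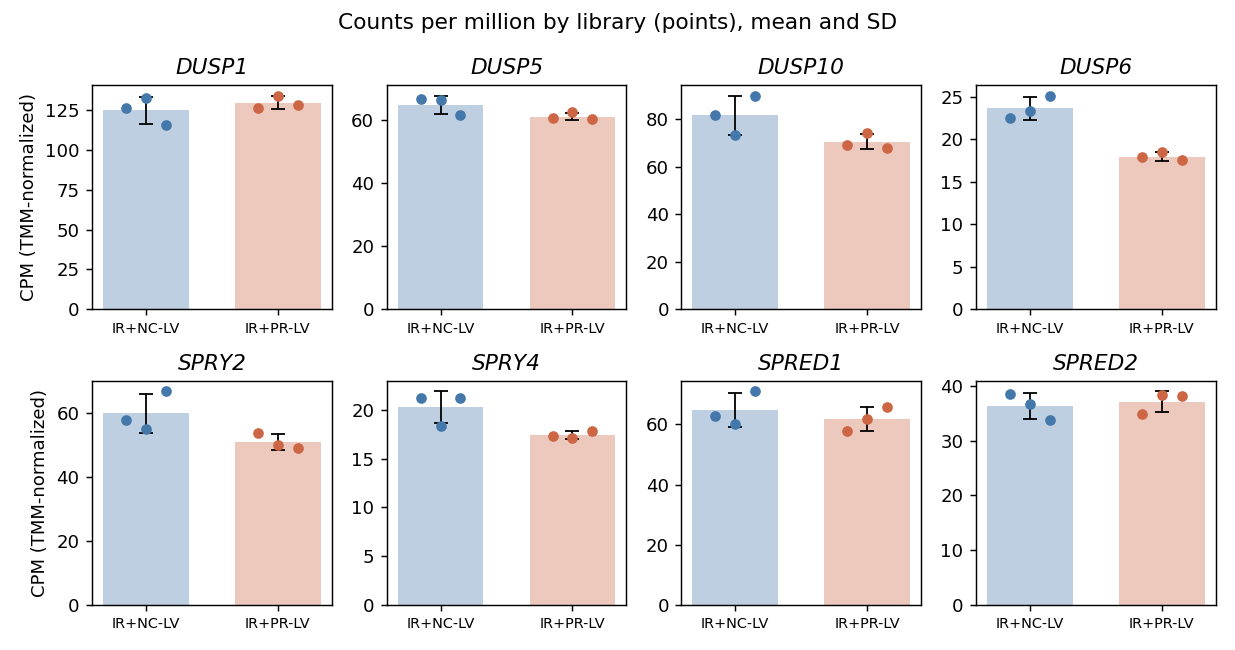
CPM after TMM normalization (vertical axes, each starting at 0) of the 8 members with more than 7 TPM, with 1 point per library, bars at the group mean and error bars of 1 SD over 3 libraries. All 3 IR+PR-LV points lie below all 3 IR+NC-LV points for DUSP6, SPRY2 and SPRY4, and the points of the groups overlap for the other 5 genes.

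DUSP6 is the cytoplasmic phosphatase that acts on ERK almost alone and is among the transcripts most closely tied to ERK output. The gene lies on chromosome 12 at 89347235 to 89352501, minus strand, and its promoter is the one shown above without a match. Its level was 22.5, 23.3 and 25.1 CPM in IR+NC-LV against 17.9, 18.5 and 17.5 CPM in IR+PR-LV. All 3 IR+PR-LV libraries lay below the lowest IR+NC-LV library. The means were 23.6 ± 1.33 and 18.0 ± 0.498 CPM (SD, n = 3 each).

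The log2 fold change of DUSP6 was -0.39 with a standard error of 0.08 and a 95% interval of -0.58 to -0.21, a change of -23.9% (-33.3% to -13.3%). Its unadjusted p was 0.00104 in edgeR, which placed it at rank 100 of 15340, and its adjusted p of 0.160 missed the threshold. Over the other settings its log2 fold change stayed between -0.43 and -0.35 and its adjusted p between 0.0754 and 0.509. With any 1 library left out, its unadjusted p in edgeR lay between 0.00191 and 0.00465. Behind the values stood 300 to 517 reads per library.

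The nuclear phosphatases of the set are encoded by genes that respond within minutes to growth factors and stress. DUSP1, which acts on p38, JNK and ERK, lies on chromosome 5 at 172768096 to 172771195, minus strand. It was measured at 126, 133 and 116 CPM in IR+NC-LV and at 127, 134 and 129 CPM in IR+PR-LV. The 2 groups overlapped, with means of 125 ± 8.56 and 130 ± 3.95 CPM. The log2 fold change of 0.06 had a 95% interval of -0.10 to 0.21, which in percent is -6.47% to 15.4% (adjusted p = 0.811, edgeR).

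DUSP5, a nuclear phosphatase specific for ERK, lies on chromosome 10 at 110497907 to 110511533, plus strand. Its 3 IR+NC-LV libraries had 66.7, 66.5 and 61.5 CPM and its 3 IR+PR-LV libraries 60.6, 62.6 and 60.3 CPM. On this scale the groups overlapped at their edge, the lowest IR+NC-LV library falling between the IR+PR-LV libraries, whereas on the TPM scale the ranges given above were apart. DUSP5 had a log2 fold change of -0.09 with an interval of -0.23 to 0.06 and an adjusted p of 0.690 in edgeR.

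DUSP4, a nuclear phosphatase for ERK and JNK encoded on chromosome 8, stood at a very low mRNA level. It had 7, 5 and 7 reads in IR+NC-LV and 6, 7 and 7 reads in IR+PR-LV, 39 in all. That amounted to 0.386 ± 0.136 and 0.329 ± 0.0694 CPM, and the gene did not enter the test. When the filter on low counts was dropped its log2 fold change was -0.20 with a standard error of 0.50 and an adjusted p of 0.927 in edgeR, too wide to show a small difference.

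DUSP10 and DUSP8 belong to the phosphatases that prefer JNK and p38 to ERK. DUSP10, on chromosome 1 at 221701424 to 221742091, minus strand, had 81.5, 73.1 and 89.8 CPM in IR+NC-LV and 69.3, 74.1 and 67.9 CPM in IR+PR-LV. The second library of IR+NC-LV stood below the second library of IR+PR-LV, so the groups overlapped. For DUSP10 the log2 fold change was -0.21 with an interval of -0.40 to -0.02, an unadjusted p of 0.0357 and an adjusted p of 0.438 in edgeR.

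DUSP8 had few reads, and they were spread over listed copies. On its chromosome 11 copy (1554051 to 1572839, minus strand) 6, 30 and 8 reads were counted in IR+NC-LV and 7, 16 and 47 in IR+PR-LV. A copy on a scaffold had 15, 11 and 9 reads and 8, 22 and 20 reads, and the remaining copy had none. The share of the reads that fell on chromosome 11 varied from 28.6% to 73.2% between libraries of IR+NC-LV alone. How reads were divided between near-identical copies is therefore uncertain, and 1.30% of the DUSP8 exon bases also overlap KRTAP5-AS1 on the opposite strand.

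**Figure D3:**
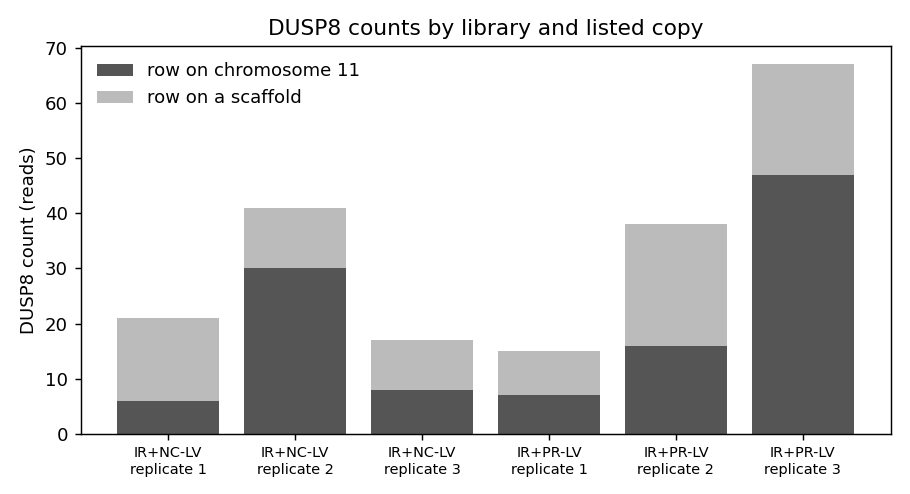
Reads counted for DUSP8 in each of the 6 libraries (vertical axis, number of reads), stacked by the copy on chromosome 11 (dark) and the copy on a scaffold (light). Replicate 2 of IR+NC-LV and replicate 3 of IR+PR-LV hold the most reads, 41 and 67, and in both most of them are on the chromosome 11 copy.

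With the copies added together DUSP8 had 21, 41 and 17 reads in IR+NC-LV and 15, 38 and 67 reads in IR+PR-LV. The log2 fold change of the chromosome 11 copy was 0.47 with an interval of -1.12 to 2.06 (adjusted p = 0.849, edgeR), and that of the summed copies was 0.36 (adjusted p = 0.817, edgeR). The direction on the chromosome 11 copy rested on 1 library, and the log2 fold change was -0.69 without replicate 3 of IR+PR-LV. Without replicate 2 of IR+NC-LV it kept its direction, at 1.31.

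Sprouty proteins are induced by growth factor receptors and dampen the path from receptor to ERK. SPRY2, on chromosome 13 at 80335976 to 80341126, minus strand, had 57.8, 54.8 and 66.7 CPM in IR+NC-LV and 53.5, 49.9 and 49.1 CPM in IR+PR-LV. The groups did not overlap, although the second IR+NC-LV library and the first IR+PR-LV library were close. Its log2 fold change was -0.23 with an interval of -0.43 to -0.04, an unadjusted p of 0.0246 and an adjusted p of 0.401 in edgeR. Taken within a library, the ratio of SPRY2 to SPRED1 in TPM overlapped between the groups. It was 2.36, 2.34 and 2.41 in IR+NC-LV and 2.38, 2.08 and 1.92 in IR+PR-LV.

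SPRY4, on chromosome 5 at 142310430 to 142325021, minus strand, had 21.2, 18.4 and 21.2 CPM in IR+NC-LV and 17.3, 17.1 and 17.9 CPM in IR+PR-LV. The libraries of the 2 groups lay apart by less than 1 CPM at their nearest. For SPRY4 the log2 fold change was -0.21 with an interval of -0.42 to -0.01, an unadjusted p of 0.0432 and an adjusted p of 0.457 in edgeR. Of its exon bases, 9.73% are shared with SPRY4-IT1 on the same strand, and reads there could be assigned to either. SPRY2 stood 5.63 to 6.49 times above SPRY4 on the TPM scale in IR+NC-LV and 5.67 to 6.39 times above it in IR+PR-LV, and these ratios overlapped. The ratio of SPRY4 to SPRED2 in TPM did not overlap. It was 0.481, 0.437 and 0.546 in IR+NC-LV and 0.432, 0.390 and 0.409 in IR+PR-LV.

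The Spred proteins restrain RAS, SPRED1 by bringing the RAS inhibitor neurofibromin to the membrane. SPRED1, on chromosome 15 at 38252087 to 38357249, plus strand, had 62.7, 60.3 and 71.0 CPM in IR+NC-LV and 57.8, 61.6 and 65.8 CPM in IR+PR-LV. SPRED2, on chromosome 2 at 65307425 to 65432599, minus strand, had 38.4, 36.6 and 33.8 CPM and 34.9, 38.3 and 38.1 CPM. Both genes overlapped between the groups. Their log2 fold changes were -0.06 and 0.03, with adjusted p-values of 0.823 and 0.914 in edgeR, and the direction of each turned when replicate 3 of IR+NC-LV was left out.

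The count of 4 members with an unadjusted p under 0.05 depended on single libraries. It was 2 without replicate 1 of IR+NC-LV and without replicate 1 or 2 of IR+PR-LV, and 1, DUSP6, without replicate 3 of either group. The share of all genes tested with such a p moved as well. It was 6.39% without replicate 1 of IR+NC-LV, and 16.4% and 6.06% without replicate 1 and replicate 2 of IR+PR-LV. Without replicate 3 it was 9.08% for IR+NC-LV and 8.3% for IR+PR-LV. All 8 members with more than 7 TPM varied little between replicates, with a coefficient of variation of 4.50% to 10.3% in IR+NC-LV and 2.03% to 6.48% in IR+PR-LV.

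**Figure D4:**
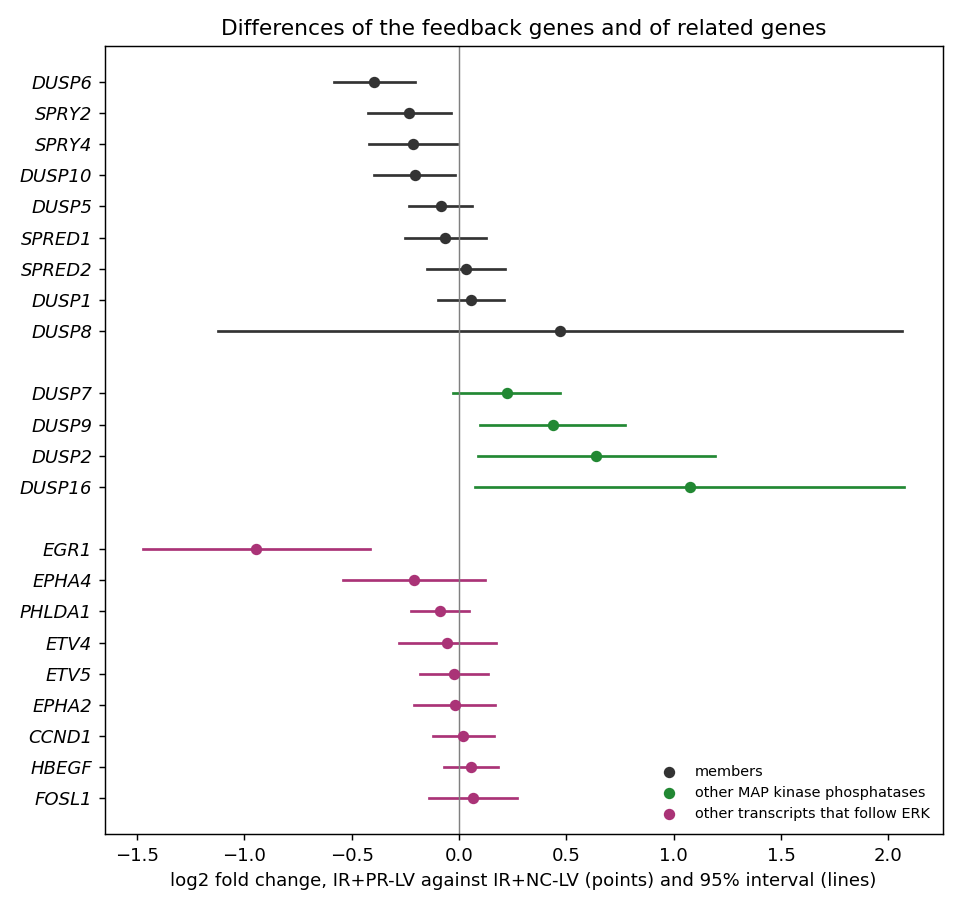
Log2 fold change of IR+PR-LV against IR+NC-LV (horizontal axis; points, with 95% intervals as lines) of the 9 members tested (black), the 4 other MAP kinase phosphatases (green) and 9 other transcripts that follow ERK activity (purple). The intervals of DUSP6, SPRY2, SPRY4 and DUSP10 lie below 0, those of DUSP2, DUSP9 and DUSP16 above 0, and EGR1 has the lowest point, at -0.94. IER3, split over listed copies, is left out.

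The 4 MAP kinase phosphatases outside the set were measured too. None of DUSP2, DUSP7, DUSP9 and DUSP16 passed the threshold, and all 4 had higher values in IR+PR-LV, with a median log2 fold change of 0.54. Of all 15340 genes tested, 7839 lay on the higher side. DUSP9, a cytoplasmic ERK phosphatase like DUSP6, had 9.24, 9.59 and 8.997 CPM in IR+NC-LV and 15.5, 11.05 and 11.25 CPM in IR+PR-LV. The groups did not overlap, and the log2 fold change was 0.44 (unadjusted p 0.0169, adjusted p 0.381, edgeR). DUSP7, the remaining relative of DUSP6, had a log2 fold change of 0.22 with an interval of -0.03 to 0.47. DUSP7 and DUSP9 were named after their values were seen, since no gene of the list lay on the lower side.

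DUSP2, a nuclear phosphatase, had 1.31, 2.18 and 1.22 CPM in IR+NC-LV and 2.32, 2.75 and 2.39 CPM in IR+PR-LV (log2 fold change 0.64, unadjusted p 0.0280, adjusted p 0.414, edgeR). DUSP16, which acts on JNK and p38, was listed as 2 copies. Its summed reads were 91, 52 and 54 in IR+NC-LV and 51, 320 and 183 in IR+PR-LV. Scaled to library size, the copy with most reads had 5.42, 2.47 and 3.89 CPM in IR+NC-LV and 3.04, 11.4 and 9.89 CPM in IR+PR-LV. Replicate 1 of IR+PR-LV thus stood with the control libraries while the other 2 stood above them. The log2 fold change of the copy with most reads was 1.07 (adjusted p 0.444, edgeR), and without the filter on low counts it passed, at 0.00648.

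The remaining inhibitors gave no call either. Of 10 small dual specificity phosphatases that lack the kinase-binding domain, none passed, and only DUSP28 had an unadjusted p under 0.05, at a log2 fold change of -0.42 (adjusted p 0.430, edgeR). The list ran from -0.56 for DUSP15 to 0.25 for DUSP14, with DUSP19 at 0.11. The 3 other Sprouty and Spred genes had log2 fold changes of -0.09 (SPRY1), -0.03 (SPRED3) and 0.24 (SPRY3, at 4 to 18 reads per library), none with an unadjusted p under 0.05. The same held for 12 further inhibitors of receptors, RAS and RAF, which lay between -0.24 (LRIG1) and 0.12 (RASA2), with CBLB at -0.20 and DAB2IP at 0.10.

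The kinases that the members act on were measured as well. None of 20 genes of the relay from receptor to ERK passed the threshold, 15 lay on the higher and 5 on the lower side, and the median was 0.06. KSR1, a scaffold of the RAF to ERK step, had 20.6, 20.04 and 27.1 CPM in IR+NC-LV and 18.9, 14.6 and 17.0 CPM in IR+PR-LV (log2 fold change -0.42, unadjusted p 0.0150, adjusted p 0.377, edgeR), and BRAF was at -0.15. PTPN11, the phosphatase that carries receptor signals to RAS, was at 0.14 (unadjusted p 0.0282, adjusted p 0.416, edgeR); it was named after its value was seen.

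HRAS was at 1.496 and RPS6KA1, an ERK-activated kinase, at 0.22, and both were listed as 2 copies. The reads of the HRAS copies summed to 23, 23 and 47 in IR+NC-LV and to 17, 198 and 140 in IR+PR-LV. Scaled to library size, the HRAS copy with most reads had 1.37, 1.09 and 3.38 CPM in IR+NC-LV and 1.01, 7.08 and 7.61 CPM in IR+PR-LV. Replicate 1 of IR+PR-LV was again not above the controls. The adjusted p of HRAS was 0.463 in edgeR and, without the filter on low counts, 0.00381. Of 14 genes of the JNK and p38 relay none had an unadjusted p under 0.05. They lay between -0.22 (MAP2K6) and 0.25 (MAPK12), with MAP2K3 at -0.14 and MAP3K5, a kinase activated by oxidative stress, at 0.21.

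Of 10 other transcripts that follow ERK activity, each taken by the copy with most reads, none passed the threshold in edgeR. EGR1 alone had an unadjusted p under 0.05 on that basis. EGR1, an immediate early transcription factor, had 6.56, 6.17 and 9.57 CPM in IR+NC-LV and 5.06, 3.18 and 3.37 CPM in IR+PR-LV. The groups did not overlap. Its log2 fold change was -0.94, with an adjusted p of 0.224 in edgeR, 0.0361 in DESeq2 and 0.00263 without the filter on low counts. EPHA4 was at -0.21, FOSL1 at 0.06 and IER3, whose reads were divided over 6 listed copies, at 0.34 on the copy with most reads. With its copies summed, IER3 had 286, 314 and 264 reads in IR+NC-LV and 281, 736 and 470 in IR+PR-LV, not scaled to library size. Scaled, the copy with most reads had 10.8, 9.40 and 11.1 CPM in IR+NC-LV and 9.95, 14.9 and 14.5 CPM in IR+PR-LV. The log2 fold change of the summed copies was 0.44 (unadjusted p 0.0263, adjusted p 0.408, edgeR), on the side opposite to EGR1. Of the IER3 exon bases, 35.6% also overlap IER3-AS1 on the opposite strand. The other 6, among them the ETS factors ETV4 and ETV5, lay between -0.09 and 0.06. Whether these transcripts and the members differ from each other was not tested.

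Immediate early genes are, like DUSP1, transcribed within minutes of a stimulus. Of 11 tested, 10 lay on the lower and 1 on the higher side with a median of -0.16, and ATF3 passed the threshold. ATF3, a stress-induced transcription factor, fell from 74.3, 62.3 and 98.5 CPM in IR+NC-LV to 30.7, 27.8 and 31.7 CPM in IR+PR-LV (log2 fold change -1.38, adjusted p 0.0173, edgeR). It no longer passed without replicate 1 of IR+NC-LV (adjusted p 0.0605, edgeR) or without replicate 1, 2 or 3 of IR+PR-LV (0.0722, 0.0559 and 0.121). JUN, named after its value was seen, had the only other unadjusted p under 0.05, at -0.23 (adjusted p 0.350, edgeR). FOS was at -0.26 and CCN1, the gene on the higher side, at 0.01, whereas DUSP1, at 0.06, stood close to CCN1.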

How the data were processed

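Poly(A) RNA of 6 libraries of HK-2 cells was sequenced as read pairs; before counting, the authors discarded low-quality reads and those carrying adapters. The submitters' processing notes name CASAVA, featureCounts 2.0.1, DESeq2 1.16.1 and the hg38 build. The aligner, the annotation release and the strand setting are not given in the sources used here. The authors deposited raw read counts per gene, with TPM and FPKM values computed from the same counts and gene lengths. Counts were used for all tests and the deposited TPM for levels between genes, and FPKM was not used. Gene copies on alternate scaffolds are listed apart.

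Counts of the 6 libraries were fitted with edgeR 4.0.16 (R 4.3.3): filterByExpr (minimum count 10, minimum total 15), TMM normalization, quasi-likelihood test, IR+PR-LV against IR+NC-LV, Benjamini-Hochberg adjustment over all 15340 genes tested and a threshold of 0.05. CPM values are TMM-normalized. The 95% intervals are the log2 fold change plus or minus its standard error times the t quantile. The procedure was tested on simulated data with differences larger than those measured for any member, so that test does not cover differences of their size. Total counts ranged from 13407074 to 28540041. No 2 libraries shared more than 1.56% of equal counts, so all 6 were used.

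The members and gene lists were chosen with earlier results of these data known. The rule names all 10 members, any gene of the other lists past the threshold, from each list up to 2 tested genes with the largest log2 fold change above 0 and up to 2 with the largest below 0, and PRDM16. A gene with several listed copies entered by the copy with the most counts. Promoter sequences are from RefSeq (GRCh38.p14). Alternatives were DESeq2 1.42.0, normalization by RLE or by upper quartile, no filter on low counts, at least 10 counts in every library, summed copies, the replicate number as a block, and each library left out.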

Additional observations from a re-analysis of the deposited data

How the results depend on the processing

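No member passed the threshold under any of the settings tried. The number of all genes past it was 10, and it was 173 with DESeq2, 342 without the filter on low counts, 3 with the replicate block and 1 to 28 with 1 library left out (1 without replicate 1 of IR+NC-LV or replicate 3 of IR+PR-LV, 28 without replicate 2 and 16 without replicate 3 of IR+NC-LV). The number of members with an unadjusted p under 0.05 was 4, and it was 2 with the replicate block and 1 to 4 with 1 library left out. Of all genes tested, 10.5% had such a p, 10.7% with the replicate block and 6.06% to 16.4% with 1 library left out. Whether the replicate numbers pair the samples is not stated in the labels. Deviations of same-numbered libraries from their group means correlated at -0.0088, 0.0514 and 0.0706. No shared effect of the number was visible, which does not settle whether the samples were paired. The median log2 fold change of the members was -0.18 to -0.078 with 1 library left out. Log2 fold changes turned with a library left out, ranging from -0.69 to 1.31 for DUSP8, -0.12 to 0.0080 for SPRED1, -0.014 to 0.073 for SPRED2, -0.045 to 0.21 for DUSP19, -0.080 to 0.040 for SPRED3, -0.26 to 0.86 for SPRY3, -0.022 to 0.19 for DAB2IP, -0.027 to 0.82 for RPS6KA1, -0.012 to 0.12 for FOSL1 and -0.065 to 0.066 for CCN1. Of the other values of single genes, 509 kept direction and side of the threshold, 4 (DUSP16 and HRAS without the filter, EGR1 without it and with DESeq2) newly passed, and 4 (ATF3, each with 1 library left out) no longer did. The causes were not tested. DUSP4, with 39 reads in all, was too low to be tested.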

Other observations

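DUSP8, DUSP16 and HRAS have in common that they are listed more than once, and genes of that kind varied more between replicates over the whole table. The coefficient of variation within groups, pooled over both, had a median of 11.4% for the 4079 genes listed once with a mean of 2 to 20 CPM, and of 33.1% for the 511 entries of genes listed more than once in the same range. At 20 CPM and more the medians were 6.80% (7930 genes) and 18.2% (120 entries), and below 2 CPM 24% (2384 genes) and 36.2% (316 entries). The values of the chromosome 11 copy of DUSP8 (87.5%) and of HRAS (67.2%) and DUSP16 (47.1%) lay above the median of their class, and those of DUSP14 (20.1%) and IER3 (16.1%), also listed more than once, below it. RPS6KA1 was at 44.0%, above it. The comparison was chosen after these genes had been seen, and its cause was not tested. Among the members, only DUSP8 is listed more than once.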
